A study of Mus musculus with 6 samples.

Results

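The cornified envelope is the cross-linked protein shell that replaces the plasma membrane of a terminally differentiated cell of stratified squamous epithelium, and its genes are described here on arrays of mouse aorta. Members were taken by symbol alone: every gene whose symbol begins with Sprr or Lce, and 17 symbols given singly. Of those 17, 15 had a probe set annotated to that gene and no other. Flg and the symbol Loricrin had none, but loricrin was measured under its symbol Lor. This gave 47 genes of the 19938 with such a probe set, each measured by 1 probe set. They comprised 13 small proline-rich (SPRR) genes, 19 late cornified envelope (LCE) genes, 6 S100 fused-type genes, 5 genes of the envelope scaffold, 2 transglutaminases, and Krtdap and Cnfn. The study hybridised 3 RNA samples from Trail knockout mice (Trail-/-) and 3 from wild-type mice to one-colour Affymetrix arrays. Its aim was the effect of losing TRAIL, a protein of the tumour necrosis factor superfamily that triggers apoptosis and is encoded by Tnfsf10. The labels give C57Bl6/J as the strain, aorta as the tissue and 6 weeks as the age for both genotypes, and name Amgen as the source of the knockout mice. Whether each array held the RNA of 1 animal is not stated, so p-values measure only the spread between these samples. Values are log2 signals as deposited, differences are knockout minus wild type on that scale, and 1 log2 unit is a 2-fold change.

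The envelope is built in order. Involucrin, envoplakin and periplakin are laid down first beneath the membrane, loricrin and the SPRR proteins then make up most of its mass, and LCE proteins are added late. Transglutaminases join all of these through glutamine and lysine side chains, and S100 fused-type proteins such as hornerin and repetin link the shell to keratin filaments. Most of the genes lie together in the epidermal differentiation complex. Skin, mouth, oesophagus and forestomach carry such an epithelium; the vessel wall is made of endothelium, smooth muscle and connective tissue.

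The arrays were first checked against their labels. Over all genes the median log2 signal was 6.47, 6.42 and 6.37 on knockout arrays 1 to 3, against 6.34, 6.39 and 6.42 on wild-type arrays 1 to 3. Tnfsf10 had log2 signals of 5.02, 4.48 and 4.09 on the knockout arrays, against 8.42, 4.90 and 4.85 on the wild-type arrays. The gene was therefore high on wild type 1, while wild types 2 and 3 lay within the range of the knockout arrays. By its mean over the 6 arrays, its probe set was among the dimmest 40% and was not tested. How far its low values lie above background is unknown, as is where its probes lie relative to the deletion. Every array below is called by its label, which Tnfsf10 did not bear out for wild types 2 and 3. Acta2, an actin of the smooth muscle contractile apparatus, was bright on every array. It had 12.57, 12.63 and 12.27 on knockout arrays, against 12.62, 12.39 and 12.57 on wild-type arrays. Not all of the 12 smooth muscle genes were level. On wild type 1, 2 of them lay over 2-fold below all other arrays and 1 lay over 2-fold above. Wild type 1 stood apart from the other 5 arrays on many genes, and genotype differences were computed with and without it.

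Most envelope genes had a high signal on 5 arrays and a low one on wild type 1. On that array 33 of the 47 members lay over 2-fold below every other array, against 4.74% of all genes, and 21 lay over 16-fold below, against 0.672%. None of the members lay over 2-fold above all other arrays there, against 4.73% of all genes. The median over the 47 members was 9.35, 9.39 and 9.89 on knockout arrays, against 4.75, 10.04 and 9.68 on wild-type arrays. The shift covered 18 of 19 LCE genes, all 5 scaffold genes, both transglutaminases, Krtdap and Cnfn, but 2 of 6 S100 fused-type genes and 4 of 13 SPRR genes. Fold gaps on wild type 1 are ratios of deposited signals: the 13 members too dim for the filter had log2 signals of 3.17 to 5.04 there, background is unknown, and so how far a low value lies above it was not tested. In bulk tissue, fewer cells of a type and less RNA per cell cannot be told apart.

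**Figure D1:**
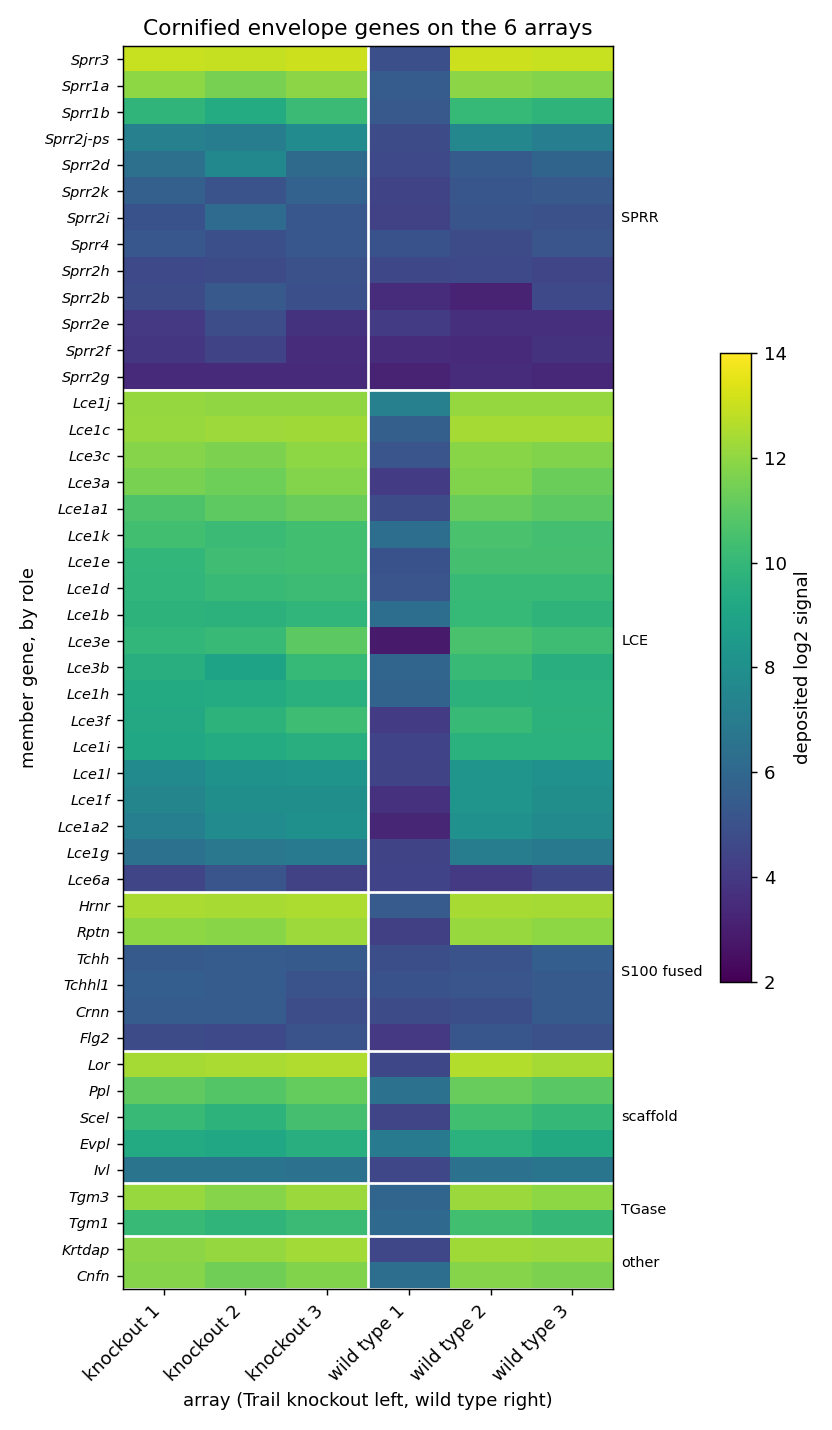
Log2 signal of the 47 members (down the page, by role) on the 6 arrays (across, Trail knockout left of wild type); colour gives the signal, to be compared between arrays within a gene. Wild type 1 is dark, a low signal, in 33 members whose other 5 arrays are lighter, while Sprr4, Lce6a, Tchh, Tchhl1, Crnn, Flg2 and most SPRR2 genes are dark on all 6 arrays.

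The SPRR genes encode short proline-rich proteins that bridge other envelope proteins, and 3 of them outside the SPRR2 group followed this pattern. Sprr3, the family member typical of internal squamous epithelium, had log2 signals of 12.97, 12.92 and 13.10 on knockout arrays, against 4.92, 13.11 and 13.01 on wild-type arrays. Wild type 1 was 256-fold below the lowest other array, and the remaining wild-type arrays lay at or above 2 of the 3 knockout arrays. Sprr1a had 11.97, 11.52 and 11.92 on knockout arrays, against 5.49, 11.90 and 11.77 on wild-type arrays. Sprr1b, its close relative, had 9.85, 9.36 and 10.19 on knockout arrays, against 5.35, 10.06 and 9.82 on wild-type arrays. For both, knockout 2 was the lowest of the 5 other arrays, and the genotypes overlapped. Sprr2j-ps, a member annotated as a pseudogene by its symbol, had 7.23, 7.06 and 7.78 on knockout arrays, against 4.75, 7.55 and 7.13 on wild-type arrays. Sprr4 had 5.25, 4.92 and 5.26 on knockout arrays, against 5.03, 4.73 and 5.16 on wild-type arrays, and showed no separate value on wild type 1.

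LCE proteins strengthen the envelope in the last steps of cornification, and the LCE1 and LCE3 groups were low on wild type 1 without exception: 13 of 13 LCE1 and 5 of 5 LCE3 genes lay over 2-fold below all other arrays. Lce1c had log2 signals of 12.14, 12.25 and 12.27 on knockout arrays, against 5.62, 12.38 and 12.39 on wild-type arrays. Lce1j had 12.10, 11.997 and 12.01 on knockout arrays, against 7.21, 12.08 and 12.08 on wild-type arrays. For Lce1c, wild types 2 and 3 were both above all 3 knockout arrays, while for Lce1j they fell among them. Lce1a1 had 10.63, 11.01 and 11.25 on knockout arrays, against 4.80, 11.19 and 10.96 on wild-type arrays. Lce1k had 10.36, 10.17 and 10.35 on knockout arrays, against 6.34, 10.58 and 10.43 on wild-type arrays. Lce1a1 overlapped between the genotypes also without wild type 1, and Lce1k did not. In the LCE3 group, Lce3a had 11.57, 11.36 and 11.80 on knockout arrays, against 4.11, 11.72 and 11.32 on wild-type arrays, and wild type 1 was 148-fold below the lowest other array. Lce3c had 11.81, 11.64 and 11.96 on knockout arrays, against 5.17, 11.87 and 11.71 on wild-type arrays. The 12 other LCE1 and LCE3 genes lay between 4.15-fold (Lce1g) and 132-fold (Lce3e) below the lowest other array on wild type 1. Lce6a, on its own in the LCE family, had 4.49, 5.16 and 4.31 on knockout arrays, against 4.40, 4.04 and 4.60 on wild-type arrays. Its lowest array was wild type 2. It was too dim for the filter, so whether the LCE pattern extends to it cannot be judged.

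The S100 fused-type genes split. Hrnr, which encodes hornerin, had log2 signals of 12.46, 12.44 and 12.51 on knockout arrays, against 5.47, 12.43 and 12.37 on wild-type arrays. Rptn, which encodes repetin, had 11.94, 11.86 and 12.25 on knockout arrays, against 4.29, 12.14 and 11.97 on wild-type arrays. Wild type 1 was 120-fold (Hrnr) and 189-fold (Rptn) below the lowest other array, and Hrnr was marginally higher on each knockout array than on any wild-type array. The other 4 members were dim on all 6 arrays. Crnn, which encodes cornulin of squamous mucosa, had 5.48, 5.48 and 4.84 on knockout arrays, against 4.78, 4.90 and 5.39 on wild-type arrays. Flg2, which encodes filaggrin-2 of the epidermis, had 4.81, 4.63 and 5.09 on knockout arrays, against 4.001, 5.21 and 4.98 on wild-type arrays. Both overlapped between the genotypes, and neither had a value on wild type 1 over 2-fold below the rest. Tchh, which encodes trichohyalin of the hair follicle's inner root sheath, had 5.40, 5.49 and 5.40 on knockout arrays, against 4.90, 5.05 and 5.57 on wild-type arrays. Tchhl1, a trichohyalin-like gene, had 5.60, 5.51 and 5.07 on knockout arrays, against 5.04, 5.17 and 5.39 on wild-type arrays. Neither hair-type gene separated any array from the rest.

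All 5 scaffold genes were lowest on wild type 1. Lor, which encodes loricrin, had log2 signals of 12.37, 12.46 and 12.58 on knockout arrays, against 4.58, 12.63 and 12.41 on wild-type arrays, a 221-fold gap on wild type 1. Ppl and Evpl encode periplakin and envoplakin, plakins that tie the envelope to desmosomes and keratin. Ppl had 11.06, 10.79 and 11.15 on knockout arrays, against 6.49, 11.21 and 10.94 on wild-type arrays. Evpl had 9.32, 9.13 and 9.57 on knockout arrays, against 6.92, 9.67 and 9.27 on wild-type arrays. The gap on wild type 1 was 19.7-fold for Ppl and 4.62-fold for Evpl, and wild type 2 gave the highest value of both. Scel, which encodes the envelope precursor sciellin, had 10.13, 9.76 and 10.46 on knockout arrays, against 4.52, 10.37 and 9.996 on wild-type arrays. Ivl, which encodes involucrin, had 6.60, 6.64 and 6.52 on knockout arrays, against 4.56, 6.52 and 6.67 on wild-type arrays. Wild type 1 was 3.87-fold below the lowest other array for Ivl, and the genotypes overlapped on the other 5.

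The cross-linking enzymes were low on wild type 1 as well. Tgm3, which encodes a soluble transglutaminase, had log2 signals of 12.14, 11.80 and 12.19 on knockout arrays, against 5.93, 12.20 and 11.98 on wild-type arrays. Tgm1, which encodes the membrane-bound enzyme, had 10.16, 9.86 and 10.16 on knockout arrays, against 6.10, 10.34 and 9.97 on wild-type arrays. In both genes wild type 1 was lowest, knockout 2 next and wild type 2 highest. Krtdap, which encodes a small secreted protein of differentiating keratinocytes, had 11.93, 12.09 and 12.33 on knockout arrays, against 4.58, 12.29 and 12.19 on wild-type arrays. Cnfn, which encodes cornifelin, had 11.82, 11.39 and 11.74 on knockout arrays, against 6.36, 11.83 and 11.63 on wild-type arrays. Wild type 1 was 164-fold below the lowest other array for Krtdap and 32.8-fold for Cnfn, and on the remaining 5 arrays both genes overlapped between the genotypes.

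The design asks whether these genes differ between Trail knockout and wild-type aorta. On all 6 arrays the mean of every member, 47 of 47, was higher in knockout, against 49.8% of all genes, with a median difference of 1.25 against -0.00 over all genes. That median was 1.97 without wild type 2, and 0.813 with a pseudocount of 64. None of the 34 members that passed the filter on dim probe sets had an adjusted p under 0.05 in limma, against 0% of all probe sets tested. The other 13 members, among them 7 SPRR2 genes, fell in the dimmest 40% of probe sets and were tested only in a run with no filter. An unadjusted p under 0.05 was reached by 1 of the 34, Sprr2d, against 0.634% of probe sets. The standard errors were near the size of the differences: 2.65 ± 2.25 (SE) for Sprr3, 2.60 ± 2.20 for Lor, 2.52 ± 2.06 for Lce3a and 2.01 ± 1.71 for Tgm3, with n = 3 in each genotype and an adjusted p of 0.921 in limma for each. Knockout and wild-type values did not overlap in 3 members that were higher in knockout (Sprr2d, Sprr2b and Hrnr), against 2.81% of all genes, and in 0 that were lower, against 3.5%.

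Without wild type 1 the direction turned for most members that were low on that array. Of the 33 over 2-fold below there, 29 then had a lower mean in knockout, while 12 of the 14 others stayed higher. Of the 47 members, 16 had a higher and 31 a lower mean in knockout, against 46.9% of all genes lower, and the median difference was -0.05 against 0.01 over all genes. The wild-type side then rests on the 2 arrays whose label Tnfsf10, itself too dim for the filter, did not bear out. For Sprr3 the difference was then -0.06 ± 0.08 (SE, 3 knockout and 2 wild-type arrays), with a 95% confidence interval of -0.25 to 0.12. Lor had -0.05 ± 0.10 and an interval of -0.29 to 0.19, Tgm3 -0.05 ± 0.14 and -0.38 to 0.28, and Lce3a 0.05 ± 0.17 and -0.35 to 0.45. Krtdap, at 2.43 ± 2.13 on 6 arrays, had -0.13 ± 0.12 and an interval of -0.42 to 0.17. By limma 0 of 34 tested members had an adjusted p under 0.05, against 0% of probe sets, and 1 had an unadjusted p under 0.05, again Sprr2d, against 1.54%. The lowest adjusted p of any tested member was 0.997.

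**Figure D2:**
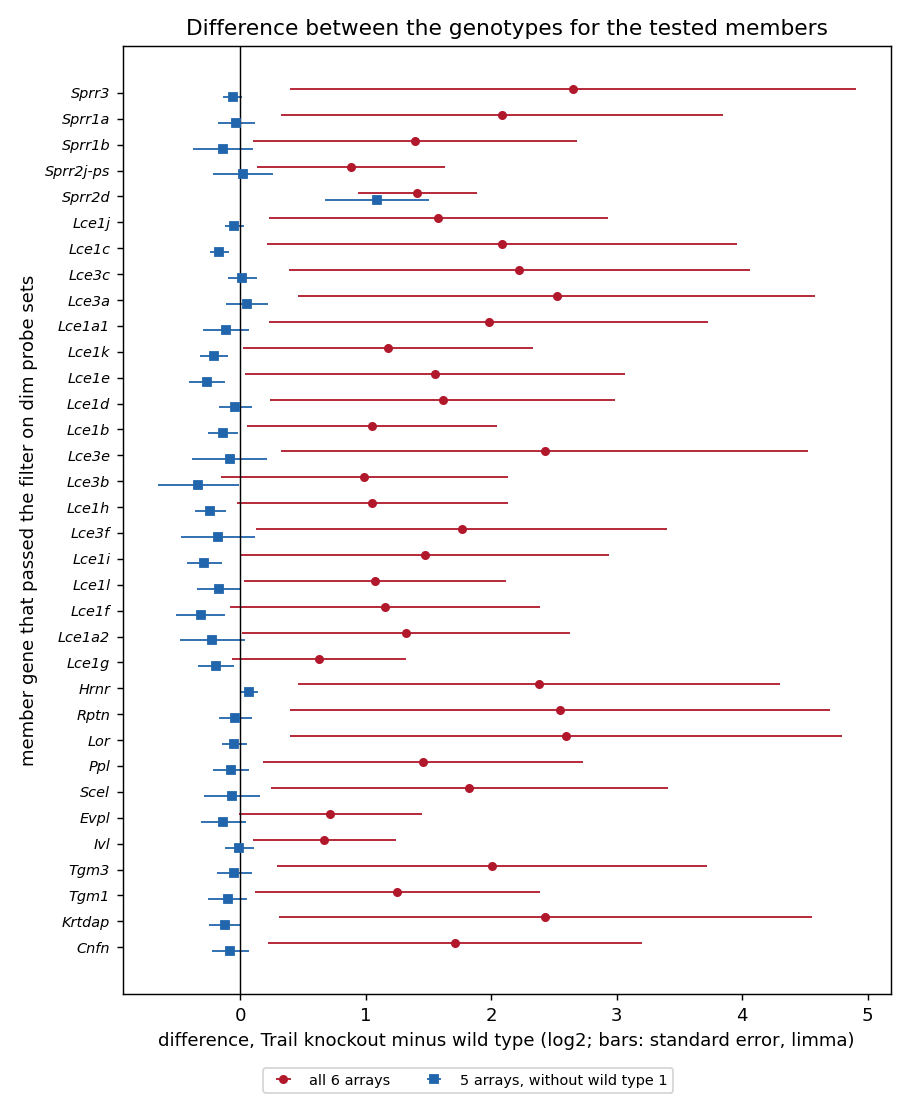
Difference between Trail knockout and wild type in log2 signal (horizontal axis) for the 34 members that passed the filter, on all 6 arrays (circles) and without wild type 1 (squares); bars are limma's standard errors. The circles lie between 0.63 and 2.65 with wide bars, and the squares lie between -0.33 and 0.07 except that of Sprr2d, at 1.09.

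Non-overlap without wild type 1 involved a few genes in each direction. Sprr2d, Sprr2b, Sprr2e and Hrnr were higher on every knockout array than on wild types 2 and 3, 4 members against 7.11% of all genes. Lce1c, Lce1k, Lce1e, Lce1h and Lce1i were lower on every knockout array, 5 members against 6.7%. The size was small for these 5, from -0.17 (Lce1c, 95% confidence interval -0.35 to 0.01) to -0.29 (Lce1i, -0.62 to 0.05), and none reached an unadjusted p under 0.05 in limma. On 6 arrays the same 5 genes had differences of 1.05 (Lce1h) to 2.09 (Lce1c). Hrnr differed by 0.07 (-0.10 to 0.23), and by 2.38 on 6 arrays. The SPRR2 genes are taken up next.

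SPRR2 genes are known to be induced in stressed epithelium. The group has 9 genes here, 7 of them too dim for the filter, and 1, Sprr2j-ps, was over 2-fold below all other arrays on wild type 1. The other 8 were among the 14 members that were not, beside Sprr4, Lce6a, Tchh, Tchhl1, Crnn and Flg2. Sprr2d had log2 signals of 6.45, 7.58 and 6.15 on knockout arrays, against 4.67, 5.39 and 5.89 on wild-type arrays. All 3 knockout arrays lay above all 3 wild-type arrays, and knockout 2 was 1.13 above the next array. The difference was 1.41 (SE 0.47, 95% confidence interval 0.24 to 2.58, n = 3 in each genotype), with an unadjusted p of 0.0256 and an adjusted p of 0.921 in limma. Without wild type 1 it was 1.09 (SE 0.41, 0.10 to 2.08), with an unadjusted p of 0.0352 and an adjusted p of 0.997 in limma. With a pseudocount of 64 it was 0.72, and without knockout 2 it was 0.98. Sprr2d thus kept its direction without wild type 1 and did not pass the adjusted threshold in either fit.

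Sprr2b had log2 signals of 4.77, 5.33 and 4.92 on knockout arrays, against 3.51, 3.19 and 4.65 on wild-type arrays. It was too dim for the filter; in the run with no filter its difference of 1.22 had an unadjusted p of 0.0193 and an adjusted p of 0.951 in limma. Without wild type 1 that difference was 1.09, with an unadjusted p of 0.0283 and an adjusted p of 0.999 in limma. Sprr2e had 4.001, 4.82 and 3.75 on knockout arrays, against 4.10, 3.65 and 3.64 on wild-type arrays. Sprr2b did not overlap between the genotypes, while the value of Sprr2e on wild type 1 lay among the knockout values. Sprr2i had 5.001, 6.20 and 5.27 on knockout arrays, against 4.38, 5.11 and 4.99 on wild-type arrays. Sprr2f had 3.91, 4.46 and 3.52 on knockout arrays, against 3.50, 3.46 and 3.76 on wild-type arrays. Knockout 2 was the highest array for all of Sprr2b, Sprr2d, Sprr2e, Sprr2f and Sprr2i, and in the whole list it was the highest of the 5 arrays other than wild type 1 for 6 of 47 members, against 19.1% of all genes. The sixth was Lce6a. Sprr2k had 5.66, 5.06 and 5.77 on knockout arrays, against 4.46, 5.21 and 5.35 on wild-type arrays. Sprr2h lay between 4.49 and 4.97 and Sprr2g between 3.17 and 3.51 over all 6 arrays. In these 3 genes knockout 2 was not the highest array, and in Sprr2k and Sprr2j-ps it was the lowest of the 5 arrays other than wild type 1. SPRR2 genes are close copies, as are LCE genes, and a probe set named for one may also bind RNA of another, so the gene behind each signal is uncertain.

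The array knockout 2 also carried genes of another epithelium. Of 16 glandular stomach genes, 15 lay over 2-fold above all other arrays on knockout 2. All 16 were highest there among the 5 arrays other than wild type 1, against 19.1% of all genes. The list median was 5.38, 11.78 and 5.004 on knockout arrays, against 5.03, 4.88 and 6.63 on wild-type arrays. Gkn1, a gastrokine of the stomach's surface cells, had 5.51, 12.97 and 5.33 on knockout arrays, against 5.39, 5.04 and 8.99 on wild-type arrays. The log2 of the list's summed signal ranged from 9.14 to 15.90 over the knockout arrays and from 9.05 to 11.24 over the wild-type arrays. Krt1 and Krt10, the keratin pair of suprabasal epidermis, were also highest on knockout 2: Krt1 had 10.36, 11.97 and 9.09 on knockout arrays, against 4.13, 9.29 and 10.77 on wild-type arrays. Their list as a whole did not follow. Among the 5 arrays other than wild type 1, 5 of 28 genes of epidermis and hair follicle were highest on knockout 2 and 17 on knockout 1. The part of these genes' tissues in the SPRR2 values was not tested.

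Among the 5 arrays other than wild type 1 38 of 47 members (80.9%) stayed within a 2-fold range, against 95.8% of all genes, and the median range was 0.51 log2 units, against 0.37 over all genes. The families differed in which arrays were high. The LCE1 genes were lowest on knockout 1 in 10 of 13 cases, with a median deviation of -0.29 from each gene's mean over the 5 arrays, and above that mean on wild type 2 in 13 of 13 cases, with a median deviation of 0.18. The LCE3 genes deviated by a median of 0.40 on knockout 3 and 0.19 on wild type 2, and were above their mean on both arrays in 5 of 5 cases. The SPRR2 genes deviated by a median of 0.64 on knockout 2, where 7 of 9 were above their mean. Of these 9, 7 were too dim for the filter, and 1 of the 2 tested was above its mean there. Sprr2j-ps, the brightest of them, was lowest of the 5 arrays on knockout 2. Over all genes the 5 medians lay between -0.02 and 0.04. All 13 LCE1 genes had a lower mean in knockout without wild type 1, with a median difference of -0.19, but they share sequence and arrays and are not independent cases. Counting over all members, wild type 2 was the highest of the 5 arrays for 18, knockout 3 for 15, knockout 2 for 6, and knockout 1 and wild type 3 for 4 each.

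**Figure D3:**
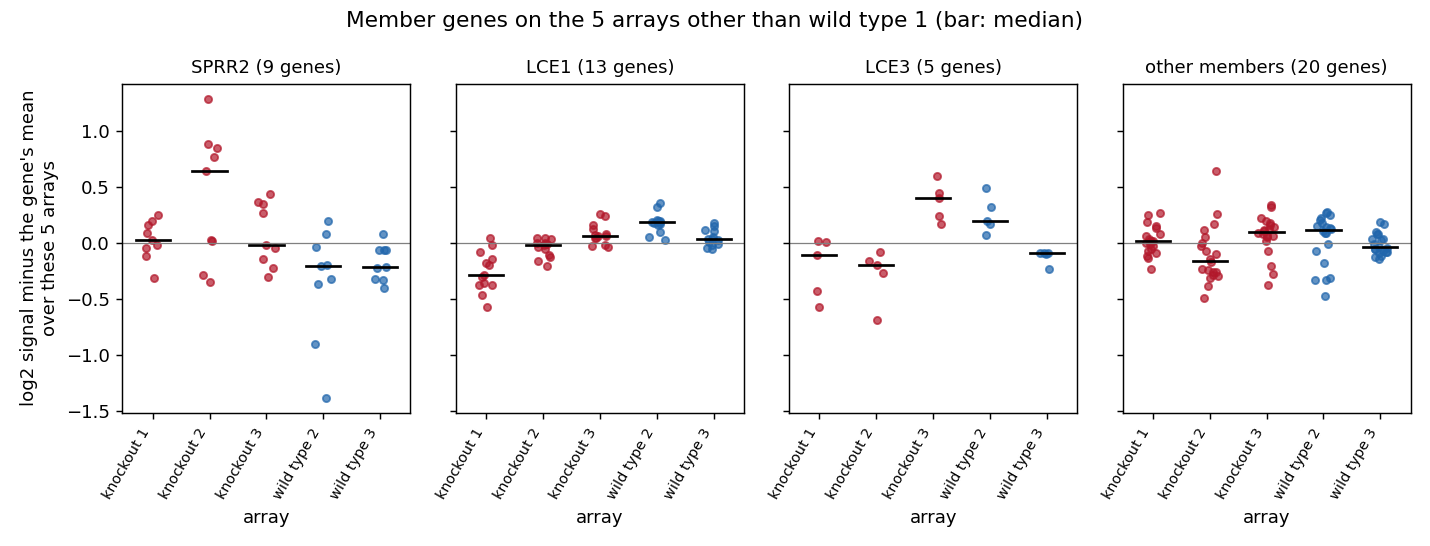
Deviation of each member's log2 signal from its own mean over the 5 arrays other than wild type 1 (vertical axis), by array and by family; points are genes and lines family medians. Of the SPRR2 genes 7 of 9 lie above their mean on knockout 2 (median 0.64). The LCE1 median is lowest on knockout 1 (-0.29) and the LCE3 median is highest on knockout 3 (0.40).

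Start regions are shown for members that moved together or apart across the arrays. RefSeq's promoter windows on GRCm38.p6, from 250 bases before to 50 bases after the start, were found for 42 of the 47 members. The 200 bases before the start are printed for 6 genes, 5′ to 3′ on the gene's strand, all on chromosome 3. Capitals mark the TATA box motif TATAAA and TGANTCA, a loose form of the AP-1 motif in which N is any base. The consensus site of Jun and Fos proteins has G or C at N, whereas the marked stretches of Rptn and Crnn have T and A there. Sprr2d (chr3:92338940-92339139, plus strand) and Sprr2e (chr3:92351943-92352142, plus strand) are 2 of the 5 SPRR2 genes that were highest on knockout 2:
Sprr2d: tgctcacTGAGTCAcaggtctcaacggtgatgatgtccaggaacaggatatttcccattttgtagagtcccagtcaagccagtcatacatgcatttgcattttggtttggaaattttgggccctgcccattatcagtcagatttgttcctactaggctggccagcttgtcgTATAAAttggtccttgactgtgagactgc
Sprr2e: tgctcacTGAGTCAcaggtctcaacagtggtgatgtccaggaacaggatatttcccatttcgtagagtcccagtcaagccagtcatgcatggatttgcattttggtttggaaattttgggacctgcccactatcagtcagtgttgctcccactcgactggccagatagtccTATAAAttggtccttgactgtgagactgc
Rptn (chr3:93393499-93393698, plus strand) was 189-fold lower on wild type 1 than on any other array, and Crnn (chr3:93144589-93144788, plus strand) was dim on all 6 arrays:
Rptn: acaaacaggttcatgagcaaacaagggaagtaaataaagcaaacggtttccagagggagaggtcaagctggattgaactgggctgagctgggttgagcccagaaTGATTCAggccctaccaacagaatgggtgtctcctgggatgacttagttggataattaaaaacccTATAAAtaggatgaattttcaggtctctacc
Crnn: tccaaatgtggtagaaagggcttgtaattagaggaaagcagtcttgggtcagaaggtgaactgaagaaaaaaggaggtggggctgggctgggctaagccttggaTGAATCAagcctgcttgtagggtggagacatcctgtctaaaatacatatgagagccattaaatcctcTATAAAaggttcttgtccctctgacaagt
Lor (chr3:92083143-92083342, minus strand) and Sprr3 (chr3:92458721-92458920, minus strand) were both low on wild type 1, one with the AP-1 motif and one without:
Lor: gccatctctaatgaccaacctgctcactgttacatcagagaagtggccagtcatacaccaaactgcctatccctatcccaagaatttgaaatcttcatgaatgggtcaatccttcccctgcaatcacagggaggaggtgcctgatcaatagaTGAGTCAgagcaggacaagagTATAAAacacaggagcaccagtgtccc
Sprr3: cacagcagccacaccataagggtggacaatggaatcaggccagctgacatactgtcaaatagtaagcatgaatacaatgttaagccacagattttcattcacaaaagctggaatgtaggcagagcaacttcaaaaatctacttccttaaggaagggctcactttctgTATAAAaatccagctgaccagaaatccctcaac

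Counting -1 as the base before the start, the AP-1 motif began at -193 in both Sprr2d and Sprr2e, at -96 in both Rptn and Crnn, and at -48 in Lor. TATAAA began at -29 in Sprr2d, Sprr2e and Crnn, at -31 in Rptn, at -27 in Lor and at -33 in Sprr3. The 300-base windows of Sprr2d and Sprr2e were identical at 88.0% of bases. Each member was counted by 1 window, although 1 member had 2 starts, whereas the comparison counted every promoter window, also where a gene has several. TGANTCA, with any base at N, was searched on both strands. It was present in 17 of 42 member windows (40.5%), against 7.81% of the 32851 promoters. TATAAA, searched on the sense strand, was present in 18 of 42 (42.9%), against 8.32%. CACCC, the core of KLF sites, searched on both strands, was present in 57.1% of members, against 57.5% of all promoters. The ETS motif CCGGAA, also searched on both strands, was in 0 of 42, against 14.9%.

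The motifs followed the gene families. AP-1 and TATA motifs were both present in 7 of 7 SPRR2 windows. In the 18 LCE windows AP-1 was found 0 times and TATA 1 time (Lce1d), and in the other 17 members each was found in 10. Of the 29 members with a window that lay over 2-fold below on wild type 1, 7 held AP-1 and 10 TATA; of the other 13, 10 held AP-1 and 8 TATA. Rptn and Crnn have the motifs at nearly the same positions, with different bases at N, and unlike values across the arrays. Crnn was too dim for the filter, so whether it shares the pattern of Rptn cannot be judged. A match is a description of these letters, and windows of closely related copies are not independent.

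The members over 2-fold below on wild type 1 did not all lie side by side along the chromosome. On chromosome 3, which holds 40 of the members, the order on GRCm38.p6 runs from Lor through the SPRR2 genes, Sprr1b, Sprr3, Sprr1a, Sprr4, Ivl and Lce6a to the LCE1 and LCE3 genes, and ends with Crnn, Flg2, Hrnr, Rptn, Tchh and Tchhl1. Of 39 neighbouring pairs, 11 differed in whether the gene lay over 2-fold below on wild type 1. Hrnr and Rptn lay over 2-fold below, for example, between Flg2 and Tchh, which did not and were dim on all 6 arrays. Of the 14 members not over 2-fold below, 13 were too dim for the filter. The order therefore cannot separate a break in the pattern from a low signal. The 7 members elsewhere (Tgm3 on chromosome 2, Krtdap and Cnfn on 7, Evpl on 11, Tgm1 and Scel on 14, and Ppl on 16) all lay over 2-fold below. Tnfsf10 is also on chromosome 3, with 0 members within 20 Mb.

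Other genes of cornification were examined in 4 lists, 98 genes in all, of which 84 were tested. In limma on 6 arrays 0 had an adjusted p under 0.05, against 0% of all probe sets tested. An unadjusted p under 0.05 was reached by 0, against 0.634%. Of the 98, 81 had a higher mean in knockout, against 49.8% of all genes, and 17 a lower one, with a median difference of 0.65. Without wild type 1, 31 were higher and 67 lower, against 46.9% of all genes lower, with a median of -0.08. On wild type 1, 61 of 98 lay over 2-fold below all other arrays, against 4.74% of all genes. Over 2-fold above lay 3, against 4.73%. Enzymes and transporters of the lipid envelope, which coats the protein shell, lay over 2-fold below in 14 of 20 cases. Alox12b, a lipoxygenase of the lipid envelope, had log2 signals of 10.96, 10.44 and 11.04 on knockout arrays, against 5.24, 11.05 and 10.57 on wild-type arrays. Elovl4, which elongates very long fatty acids, had 10.73, 10.56 and 10.83 on knockout arrays, against 5.70, 10.94 and 10.60 on wild-type arrays. Dgat2, a triglyceride enzyme that is also abundant in fat, went the other way on wild type 1, with 10.58, 10.59 and 10.60 on knockout arrays against 12.21, 10.72 and 10.45 on wild-type arrays.

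Proteases, inhibitors and further cross-linking enzymes lay over 2-fold below on wild type 1 in 22 of 28 cases. Asprv1, an aspartic protease that processes filaggrin, had log2 signals of 12.27, 12.25 and 12.46 on knockout arrays, against 5.07, 12.40 and 12.18 on wild-type arrays. Spink5, the inhibitor of kallikrein proteases, had 11.45, 11.47 and 11.48 on knockout arrays, against 4.57, 11.51 and 11.36 on wild-type arrays. Both were level across the other 5 arrays. Regulators of epidermal differentiation lay over 2-fold below in 17 of 30 cases. Klf4, a transcription factor needed for the skin barrier, had 9.38, 9.45 and 9.49 on knockout arrays, against 7.68, 9.63 and 9.40 on wild-type arrays. Other genes of the epidermal differentiation complex did so in 8 of 20 cases. Its broadly expressed S100a10, a calcium-binding family member, had 11.31, 10.90 and 11.45 on knockout arrays, against 11.24, 11.49 and 11.45 on wild-type arrays, while Crct1, a cysteine-rich gene of the complex, had 11.44, 11.29 and 11.71 on knockout arrays, against 4.67, 11.61 and 11.29 on wild-type arrays. S100a10 was alike on all 6 arrays and Crct1 was not.

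Markers of tissues moved with the members as follows. Of 30 genes of internal squamous epithelium, 27 lay over 2-fold below all other arrays on wild type 1. The list median was 9.37, 9.39 and 9.63 on knockout arrays, against 5.22, 9.73 and 9.36 on wild-type arrays, and the log2 of the summed signal ranged from 15.36 to 15.58 over knockout arrays and from 11.08 to 15.63 over wild-type arrays. Krt4, a keratin of oesophagus and forestomach, had 12.97, 12.92 and 13.01 on knockout arrays, against 5.09, 13.03 and 12.90 on wild-type arrays. Of 28 genes of epidermis and hair follicle, 4 lay over 2-fold below (Krt1, Krt10, Krt23 and Krt80), and the list median was between 5.45 and 5.62 on knockout arrays, against 5.07 to 5.52 on wild-type arrays. In that list 18 of the 28 genes were too dim for the filter. Spink5 belongs to the internal squamous list as well as to that of the inhibitors, and Trp63 and Sox2 belong also to that of the regulators of epidermal differentiation. The epidermis list includes many hair follicle genes. Counts from these lists therefore do not tell internal squamous epithelium from skin, and which of them gave the signal was not tested.

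**Figure D4:**
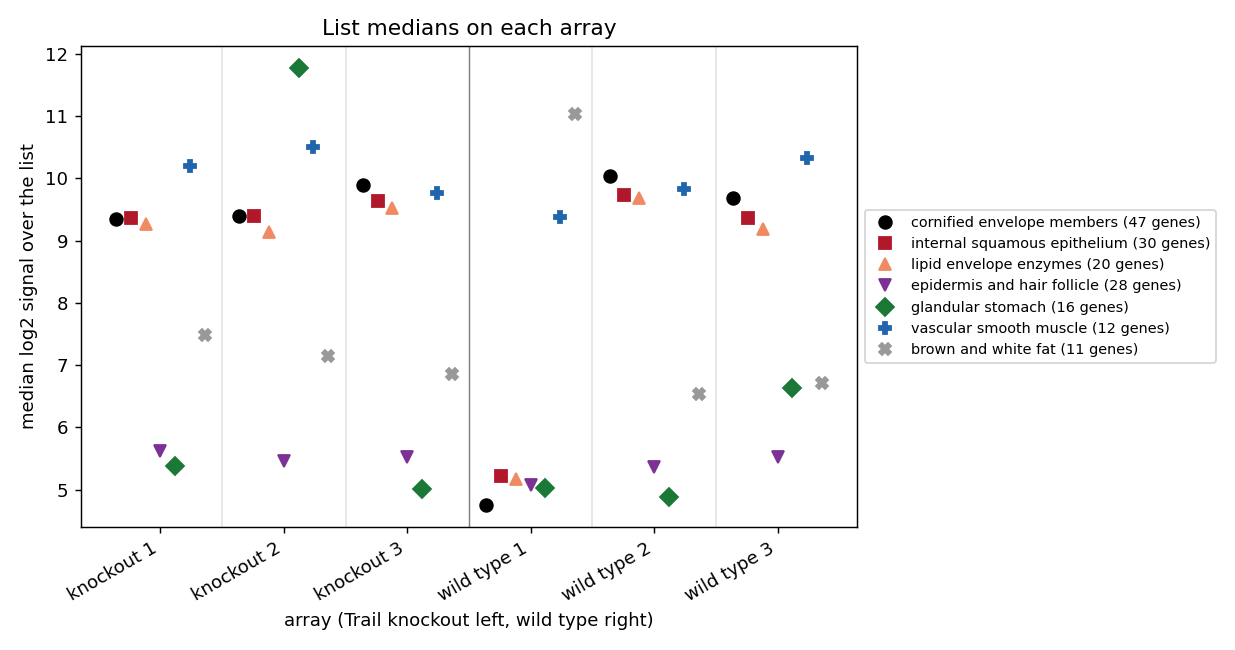
Median log2 signal over each gene list (vertical axis) on the 6 arrays (horizontal axis, Trail knockout left of wild type). The members, the internal squamous genes and the lipid envelope genes have low medians on wild type 1, the fat genes are highest there (11.03) and the glandular stomach genes are highest on knockout 2 (11.78).

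Other tissues' genes differed on wild type 1 in both directions. All 15 skeletal muscle genes lay over 2-fold below there, with list medians of 11.75, 11.40 and 11.90 on knockout arrays, against 5.71, 11.66 and 11.92 on wild-type arrays. Of 11 fat genes, 10 lay over 2-fold above, with medians of 7.48, 7.15 and 6.85 on knockout arrays, against 11.03, 6.54 and 6.72 on wild-type arrays. Smooth muscle medians were 10.19, 10.51 and 9.77 on knockout arrays, against 9.38, 9.83 and 10.33 on wild-type arrays, and endothelial medians 7.71, 7.11 and 7.20 on knockout arrays, against 8.78, 7.17 and 7.10 on wild-type arrays. Lung epithelial genes were raised on knockout 1, where 9 of 12 lay over 2-fold above the rest. Among the 5 arrays other than wild type 1, 11 of the 12 were highest there, against 6745 of all 19938 genes. The part of tissue content in the envelope values was not tested.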

How the data were processed

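RNA of 6 samples labelled as mouse aorta was measured on one-colour Affymetrix arrays, grouped by sample title. The deposited log2 values cover 35399 probe sets. Their log base was read from their range, 1.55 to 13.96. The submitters' processing notes name MAS5, and the sources used here give neither background correction nor scaling. The platform annotation gave 1 symbol for 21789 probe sets, several for 1621, from which none was named, and none for 11989. No detection calls were used, so a dim value is not a statement about background.

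All annotated probe sets were fitted in limma 3.58.1 (R 4.3.3), knockout minus wild type, with an intensity trend, two-sided p-values and Benjamini-Hochberg adjustment over the 14046 left after dropping the dimmest 40% by mean. The code was tested on simulated data. Counts over all genes use each gene's probe set with the highest mean. Alternatives were a replicate block, a pseudocount of 64, averaged probe sets, quantile normalization, centring on medians, a 60% filter or none, other moderation and leaving out each array.

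The members and all gene lists were chosen with earlier results of these data known. Values on every array are given for up to 6 members of each role by highest mean and up to 2 by lowest unadjusted p, and for up to 4 genes of other lists by highest mean. Other members named were chosen after their values were seen. Not every same-numbered pair of arrays deviated together, so the numbers were not used as pairs.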

Additional observations from a re-analysis of the deposited data

How the results depend on the processing

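No member and no gene of the related lists had an adjusted p under 0.05 in limma under any alternative run, including no filter, with the replicate block (0 members) and with each array left out. Over the 27 named members adjusted p ranged from 0.767 to 1.00. The count of 33 members over 2-fold below on wild type 1 was 31 with a pseudocount of 64 and 33 to 35 with another array left out. The median difference of 1.25 was 1.28 after quantile normalization, 1.22 after median centring and 0.813 with a pseudocount of 64. Leaving out each array gave -0.0482 (without wild type 1) to 1.97 (without wild type 2), with 1.83 without wild type 3. It was 0.02 without both wild type 1 and knockout 2, a run added after the data were seen. Of 228 runs on single named members in which the difference itself could move, 209 kept the direction and 19 turned it, 18 of them without wild type 1 and 1, Flg2, without knockout 3 (-0.01). Lce3a and Lce3c kept the sign without wild type 1, at 0.05 and 0.02 against 2.52 and 2.22 on 6 arrays. Where wild type 1 is left out, the 3 knockout arrays meet 2 wild-type arrays. The differences with 1 array left out spanned the following ranges: Sprr3 -0.061 to 4.03, Sprr1a -0.0328 to 3.17, Sprr1b -0.14 to 2.22, Lce1j -0.0479 to 2.39, Lce1c -0.17 to 3.21, Lce1a1 -0.11 to 3.08. Further ranges were Lce1k -0.21 to 1.91, Rptn -0.0411 to 3.88, Flg2 -0.25 to 0.35, Lor -0.0482 to 3.97, Ppl -0.0734 to 2.28, Scel -0.0652 to 2.86. The last were Evpl -0.13 to 1.24, Ivl -0.00721 to 1.05, Tgm3 -0.0467 to 3.09, Tgm1 -0.10 to 2.02, Krtdap -0.13 to 3.73, Cnfn -0.0791 to 2.66. Same-numbered arrays correlated by 0.09, -0.23 and 0.20 in their deviations from group means, so the numbers were not taken as pairs. The 3 arrays per genotype and unknown background limit what can be said of dim members.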

Other observations

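Some probe sets outside the membership rule are annotated to several envelope genes and were examined after the other values had been seen. A probe set annotated to 4 SPRR2 genes (Sprr2a1, Sprr2a2, Sprr2a3 and Sprr2b) had log2 signals of 12.09, 12.98 and 11.90 on knockout arrays, against 6.34, 12.03 and 11.82 on wild-type arrays. The 2 probe sets annotated to Sprr2a1 and Sprr2a3 held identical values, 10.87, 12.10 and 10.69 on knockout arrays, against 6.09, 10.77 and 10.54 on wild-type arrays. These were highest on knockout 2, as were 5 of the 9 SPRR2 members, and, unlike 8 of those 9, they lay over 2-fold below all other arrays on wild type 1. A probe set annotated to 6 LCE3 genes had 11.78, 11.41 and 11.88 on knockout arrays, against 7.11, 11.96 and 11.71 on wild-type arrays, which follows the LCE3 members.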
